A study of Mus musculus with 6 samples.

Results

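Translation initiation and elongation factors are the proteins that bring the ribosome to an mRNA and then move it along. They were taken as the rows of the count table whose mouse symbol begins with Eif and a digit from 1 to 6 or with Eef1 or Eef2. Of 63 such symbols, 4 eIF2 alpha kinases and 3 names containing -ps were left out, and no row was named *Eif2s3y*. This left 56 of 18324 gene rows, with 48 initiation factors, 7 elongation factors and *Eif2c5*, an older name of the Argonaute type, which the rule keeps and which was counted apart. All 56 passed the filter on low counts that the tests used.

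The counts come from B16-F10, a mouse melanoma line obtained from ATCC and grown in DMEM with fetal bovine serum and antibiotics. Cells with no further treatment were sorted by flow cytometry into high-pigmented cells (HPC) and low-pigmented cells (LPC), which melanin makes distinct in light scatter. Each group has 3 libraries, made by a 3′-end method in which a read comes from near the poly(A) tail, so that a transcript gives about 1 count whatever its length. One library of each group carries the same title suffix, 16-9-15, 18-8-14 or 1-9-14, and libraries with the same suffix are called a set here. The labels say neither what the suffix marks nor whether the sets came from separate cultures, so p-values measure the spread between these libraries, which may be technical. All 6 libraries are of 1 line, with no other genotype or agent.

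In eukaryotic initiation, eIF2 with GTP carries the initiator tRNA to the small ribosomal subunit, where eIF1, eIF1A, eIF3 and eIF5 help it to find the start codon. The mRNA is brought in by eIF4E, which binds the cap, eIF4G, a scaffold, and eIF4A, an RNA helicase, and eIF5B joins the large subunit. In elongation, eEF1A delivers aminoacyl-tRNAs, the eEF1B subunits exchange its nucleotide and eEF2 moves the ribosome by a codon. Cells adjust initiation through phosphorylation of eIF2 alpha and through mTOR, and elongation through phosphorylation of eEF2.

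Gene counts ranged from 3819605 to 7311131 per library. Both libraries of set 18-8-14 stood apart. A row named RP23-81C12.3 took 53.9% and 27.1% of gene counts in its HPC and LPC library, against 3.54% to 5.03% in the other 4, and fewer genes were detected there (10620 and 12778 against 14130 to 15002). Results are therefore given with all libraries and again without this set. All 7 melanocyte lineage markers passed the filter, with summed levels of 4443 to 20730 CPM, counts scaled to a common library size, in HPC and 6189 to 17280 CPM in LPC. Markers of fibroblasts, immune cells, keratinocytes and endothelium (3, 2, 1 and 1 rows) summed to 33.2, 26.8, 24.4 and 11.6 CPM in the HPC library of set 18-8-14 and to at most 5.29, 5.69, 0 and 0 CPM in the other 5 libraries. In that library the last 3 sums were *Cd68*, *Trp63* and *Pecam1* alone, at 46, 42 and 20 counts, while *Col1a1* and *Lyz2* had 0 counts. No row was named *Dcn*, *Lum*, *Ptprc*, *Cd3e*, *Cd79a*, *Krt5*, *Krt14*, *Cdh5* or *Kdr*, so these sums rest on few genes. The part of such cells in the results of that set was not tested. In bulk RNA, fewer cells that express a gene and less RNA per cell cannot be told apart.

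The summed normalised level of each class was lower in high-pigmented than in low-pigmented cells within each set, and no single factor passed the test. For elongation factors in set 18-8-14 the direction depended on the scaling, as given in the next paragraph. In sets 16-9-15 and 1-9-14 the median log2 difference was similar for initiation (-0.24 and -0.25) and elongation factors (-0.29 and -0.26). In set 18-8-14 it was -0.03 for initiation and -0.36 for elongation factors, beside -0.20 for all genes. Levels below are CPM on library sizes scaled by TMM, a normalisation that makes the average gene comparable between libraries. The summed level of the 48 initiation factors was 9763, 10765 and 10192 CPM in HPC of sets 16-9-15, 18-8-14 and 1-9-14, a mean of 10240 ± 503 (SD, n = 3). In LPC it was 11523, 17666 and 12008 CPM, a mean of 13733 ± 3415 (SD, n = 3). Every HPC library lay below every LPC library, and HPC was lower by 15.3%, 39.1% and 15.1% of the LPC level in the 3 sets. The 5 most abundant initiation factors held 56.9% of the class level. In set 18-8-14 *Eif2s2*, *Eif3a* and *Eif5b* stood at 4241, 3203 and 2338 CPM in LPC and 2132, 888 and 583 CPM in HPC. Only 25 of the 48 factors (52.1%) were lower in HPC in that set, against 55% of genes tested. The 7 elongation factors summed to 6677, 7150 and 10258 CPM in HPC, a mean of 8028 ± 1945 (SD, n = 3), and to 8539, 8017 and 12692 CPM in LPC, a mean of 9750 ± 2562 (SD, n = 3). HPC was lower by 21.8%, 10.8% and 19.2% within the sets, while the ranges of the groups overlapped. These sums are descriptions with no test, because the factors were chosen with results of these data known.

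As a share of all gene counts, before any normalisation, initiation factors made up 1.28%, 0.484% and 1.33% in HPC and 1.53%, 1.29% and 1.56% in LPC of sets 16-9-15, 18-8-14 and 1-9-14. Elongation factors made up 0.877%, 0.322% and 1.34% in HPC and 1.13%, 0.586% and 1.65% in LPC. The Wilson 95% intervals of these shares reached at most 0.0112 percentage points to either side, which covers counting error only. Both classes had the lower share in HPC within every set. With RP23-81C12.3 and the 2 mitochondrial ribosomal RNA rows left out of the total, initiation factors held 1.38%, 1.43% and 1.42% in HPC and 1.61%, 1.98% and 1.65% in LPC, still without overlap. On that total the elongation share was lower in HPC of sets 16-9-15 (0.943% against 1.19%) and 1-9-14 (1.43% against 1.75%) and higher in set 18-8-14 (0.950% against 0.899%).

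**Figure D1:**
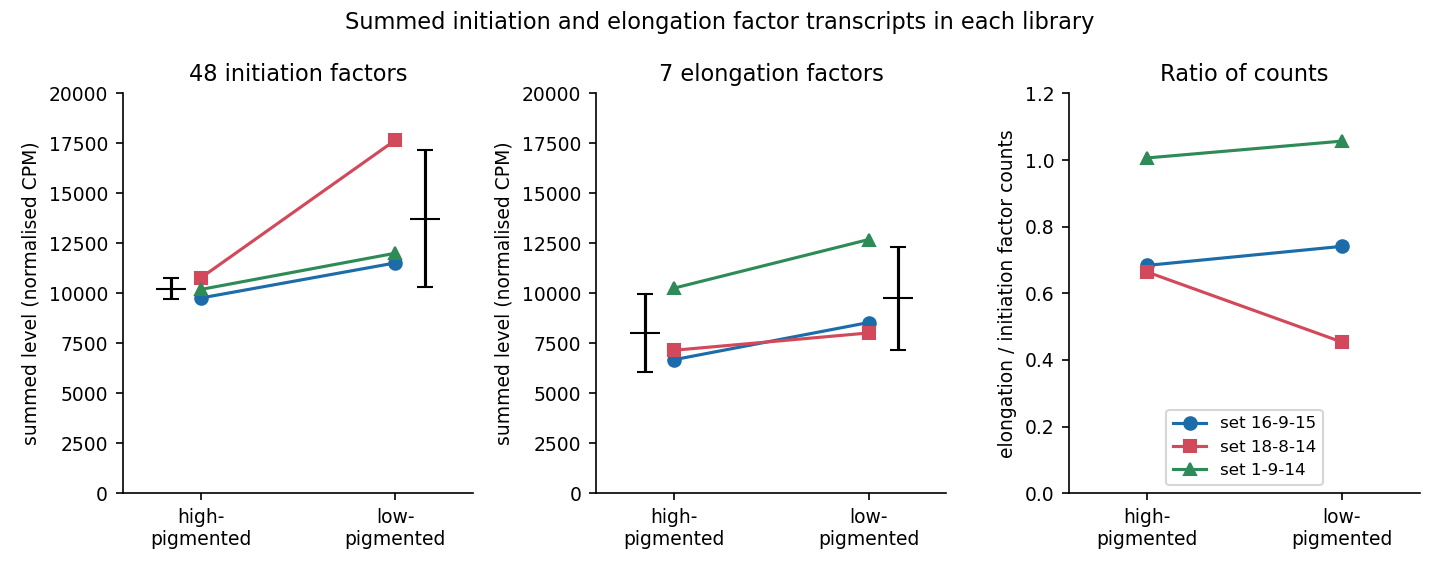
Summed TMM-normalised CPM of the 48 initiation factors (left) and the 7 elongation factors (middle), and the ratio of elongation to initiation factor counts (right), in each library, with a line joining the HPC and LPC library of a set; black bars give the mean and SD of each group. Both sums are lower in HPC within each set. On a total without RP23-81C12.3 and mitochondrial ribosomal RNA, not drawn, the elongation share of set 18-8-14 is higher in HPC. The ratio lies near 1 in both libraries of set 1-9-14 and between 0.454 and 0.741 in the other 4 libraries.

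The balance of elongation to initiation factors differed more between sets than between pigment groups. Per initiation factor count there were 0.684, 0.664 and 1.01 elongation factor counts in HPC of sets 16-9-15, 18-8-14 and 1-9-14, and 0.741, 0.454 and 1.06 in LPC. Between sets 16-9-15 and 1-9-14, summed initiation factors differed by 1.04-fold in HPC and 1.04-fold in LPC, whereas summed elongation factors were 1.54-fold and 1.49-fold higher in set 1-9-14. *Eef2* was 1.65-fold and 1.61-fold higher there and *Eef1a1* 1.60-fold and 1.47-fold higher, in HPC and LPC, while *Eef1e1*, which encodes a component of the multisynthetase complex, was lower (0.469-fold and 0.512-fold). Each set has 1 library per group, so these folds have no replicate check.

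Tested gene by gene with edgeR's quasi-likelihood test over all 6 libraries, 0 of the 56 factors had an adjusted p under 0.05 (Benjamini-Hochberg over 11324 genes). The background was 0 genes called, or 0% of those tested. At an unadjusted p under 0.05 there were 0 factors and 38 genes, and DESeq2 called 0 genes. The median log2 fold change, HPC over LPC, was -0.19 for initiation factors, with 37 of 48 lower in HPC, and -0.36 for elongation factors, with 6 of 7 lower. Over all genes tested the median was -0.04, with 53.0% lower. Of 1405 genes averaging at least 100 CPM, 896 were lower, with a median of -0.11, beside 23 of the 25 factors at that level, with a median of -0.34.

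Without set 18-8-14, and with the set as a block in the same test, 155 of 11906 genes were called, or 1.30%, and 0 of 56 factors. The smallest adjusted p of a factor was 0.0909, for *Eif5a*. At an unadjusted p under 0.05, 20 of the 56 factors (35.7%) were lower in HPC, against 6.06% of genes tested, and 1, *Eif4g3*, was higher, against 6.08%. The share lower was larger among highly expressed genes. Of 1405 genes averaging at least 100 CPM, 298 were lower and 130 higher at that p, beside 15 and 0 of 25 factors. The 20 comprised 16 initiation factors and 4 of the 7 elongation factors. This fit has 4 libraries and 1 residual degree of freedom. The same 4 libraries without the block gave 0 factors (107 genes) at that unadjusted p, and the block with all 6 libraries gave 2 (213 genes), *Eef1b2* and *Eef2*, both lower. The median log2 fold change was -0.24 for initiation factors, 15.5% lower in HPC, and -0.33 for elongation factors, 20.3% lower, beside a median near 0.00 for all genes. Among genes averaging at least 100 CPM it was -0.09, beside -0.29 for the 25 factors at that level. The gap between the class medians, elongation minus initiation, was -0.08 in this fit and -0.17 with all libraries. It turned to 0.16 without the HPC library of set 16-9-15, so which class had the lower median rested on single libraries.

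The same libraries can be read as directions within sets. In log2 CPM, with a prior count of 2, 43 of the 56 factors (76.8%) were lower in HPC in both set 16-9-15 and set 1-9-14, against 28.3% of genes. Highly expressed genes were more often lower. Among genes averaging at least 100 CPM the background was 45.7%, and 23 of 25 factors (92%) were lower in both. The median difference of initiation factors was -0.24 in set 16-9-15, -0.03 in set 18-8-14 and -0.25 in set 1-9-14, beside 0.02, -0.20 and 0.00 for all genes. That of elongation factors was -0.29, -0.36 and -0.26. Genes averaging at least 100 CPM had medians of -0.08, -0.23 and -0.07 in the same order, and the 25 factors at that level -0.25, -0.36 and -0.27. The 48 initiation factors thus lay below the median of all genes in sets 16-9-15 and 1-9-14 and above it in set 18-8-14. In set 18-8-14 the 20 initiation factors of at least 100 CPM had a median of -0.27.

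Across all 3 sets, 24 factors (42.9%) were lower in HPC every time, against 17.2% of genes, and 3 (*Eif2a*, *Eif2d* and *Eif4ebp2*) were higher every time, against 12.9%. In 8 factors (14.3%) every HPC library lay below every LPC library, against 3.31% of genes. They were *Eif3c*, *Eif3d*, *Eif3j1*, *Eif3k*, *Eif4e2*, *Eif4g1*, *Eif4enif1* and *Eef1g*. In 0 factors did every HPC library lie above, against 2.43%. Of 1405 genes averaging at least 100 CPM, 440 were lower in all 3 sets and 167 higher, beside 17 and 0 of 25 factors. Without overlap, 56 of these genes were lower and 20 higher, beside 6 and 0 of the 25 factors.

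**Figure D2:**
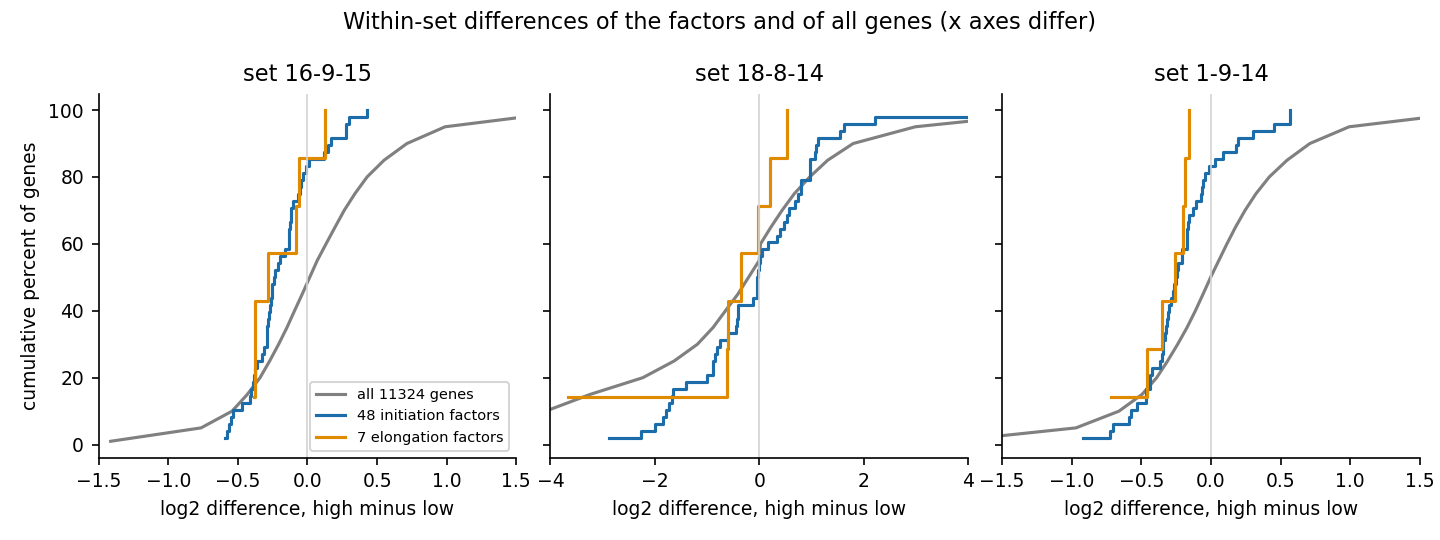
Cumulative percent of genes (y axis) by the log2 CPM difference between the HPC and LPC library of each set (x axis, with a wider range for set 18-8-14), for all genes tested (grey), initiation factors (blue) and elongation factors (orange). In sets 16-9-15 and 1-9-14 the factors' medians lie between -0.24 and -0.29, left of the genes' median of 0.02 and 0.00, and their spread is narrower. Genes averaging at least 100 CPM, not drawn, have medians of -0.08 and -0.07 in these sets.

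Set 18-8-14 was also far more variable. The interquartile range of the factors' differences was 1.51 there, against 0.307 in set 16-9-15 and 0.259 in set 1-9-14, and for all genes it was 2.30, 0.612 and 0.636. In set 18-8-14, 18 factors differed by 2-fold or more, whereas in each of the other sets only *Eif2c5* did, a row of at most 4.30 CPM.

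**Figure D3:**
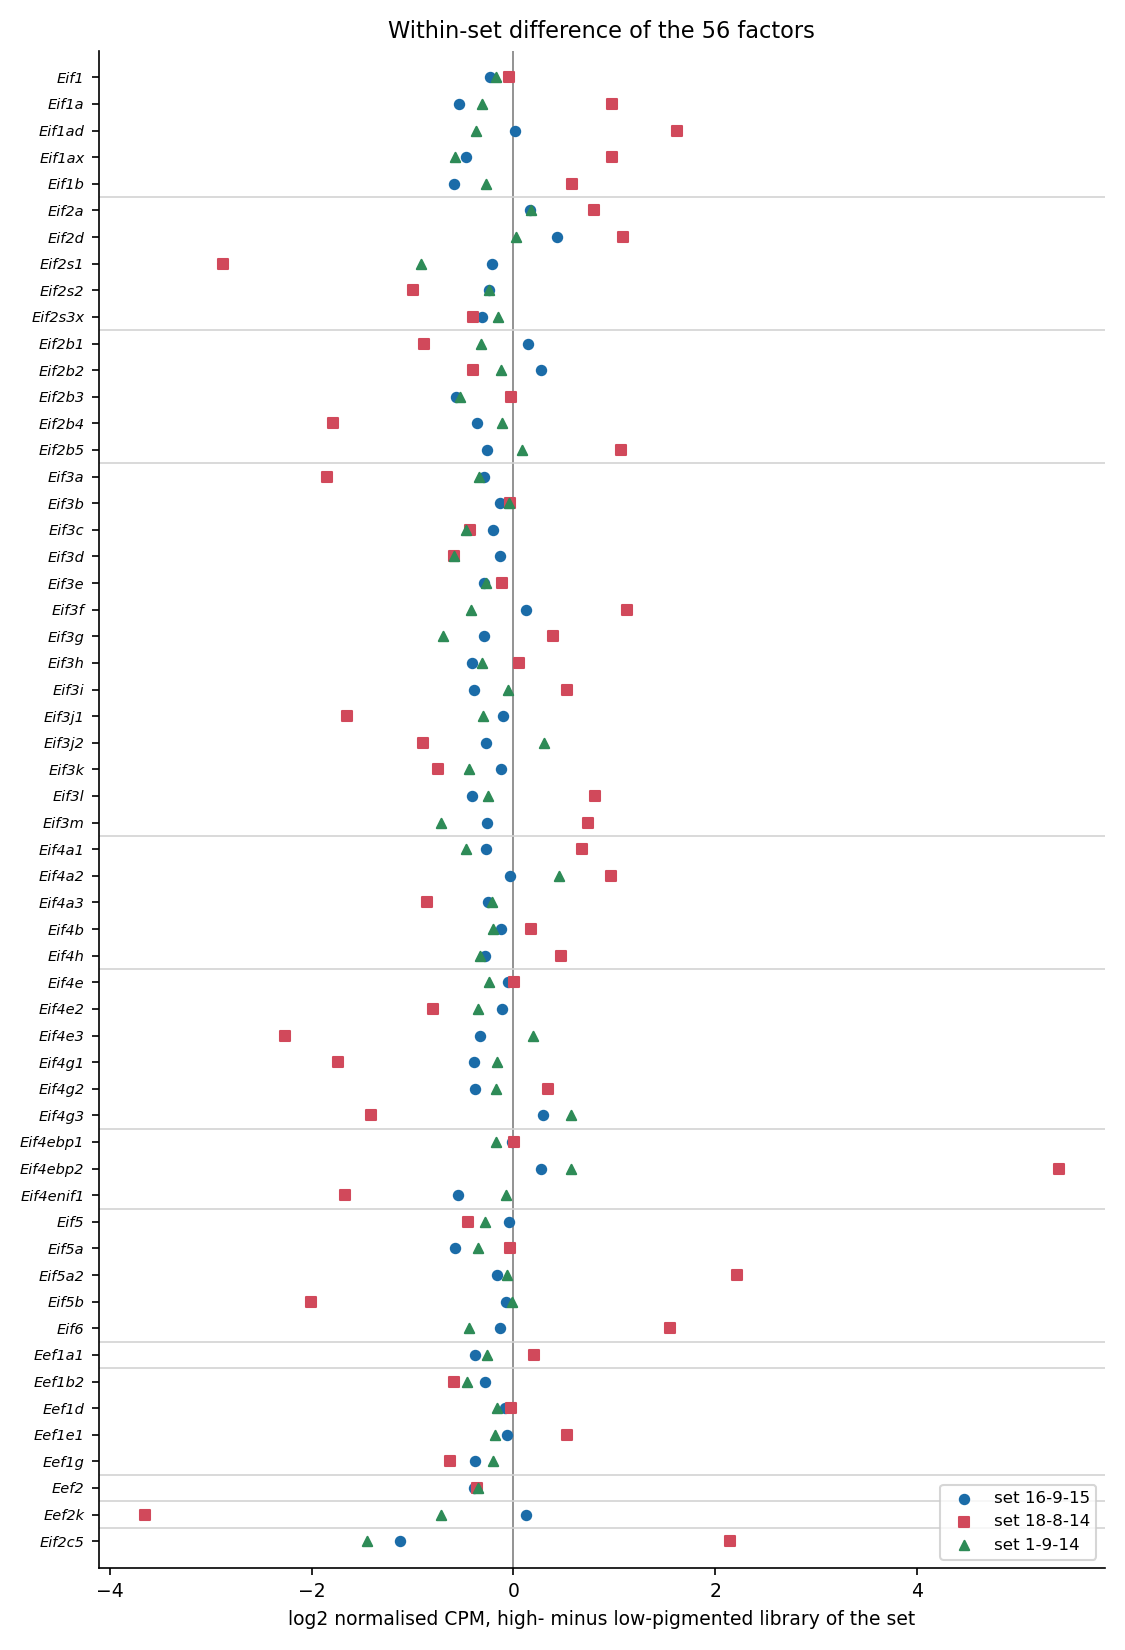
Difference in log2 CPM between the HPC and LPC library (x axis) of each of the 56 factors, ordered by role, in set 16-9-15 (blue circles), set 18-8-14 (red squares) and set 1-9-14 (green triangles). Blue and green points lie close together and mostly left of 0, while red points reach from -3.65 for *Eef2k* to 5.41 for *Eif4ebp2*.

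Among elongation factors, *Eef1a1* (chr9:78478449-78489151, GRCm38), which encodes the aminoacyl-tRNA carrier eEF1A1, was the most abundant, with 55.4% of the class. It stood at 3943, 3546 and 6299 CPM in HPC and 5119, 3081 and 7533 CPM in LPC of sets 16-9-15, 18-8-14 and 1-9-14. HPC was lower in the first and last of these sets and higher in set 18-8-14, and the groups overlapped (log2 fold change -0.19 ± 0.47 SE, edgeR adjusted p = 0.9996). Without set 18-8-14 and with the block its log2 fold change was -0.33 ± 0.11 (edgeR adjusted p = 0.171). Stretches of 12 other annotated genes are nearly identical to it, and 4 of these have rows of their own, so reads may be split among them. Those 4 rows held 2824 counts over all libraries, beside 197719 for *Eef1a1*. No row was named *Eef1a2*, the paralogue known from muscle and neurons.

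*Eef2* (chr10:81176631-81182498), the translocase, differed by nearly the same amount in each set. It stood at 1165, 1801 and 1920 CPM in HPC (1629 ± 406, SD, n = 3) and at 1521, 2305 and 2446 CPM in LPC (2091 ± 498, SD, n = 3). The within-set log2 differences were -0.39, -0.36 and -0.35, yet the sets themselves lay further apart than the groups, which overlapped. The log2 fold change was -0.36 ± 0.40 with all libraries and -0.38 ± 0.11 without set 18-8-14 and with the block (edgeR adjusted p = 0.9996 and 0.114). The gene for the small nucleolar RNA Snord37 lies inside *Eef2*.

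Of the 4 rows grouped with eEF1B, which recharges eEF1A, 3 were lower in HPC in every set, and none passed the test. *Eef1b2*, the catalytic subunit, stood at 1164, 1357 and 1582 CPM in HPC and 1418, 2046 and 2181 CPM in LPC, with within-set differences of -0.29, -0.59 and -0.46 on the log2 scale. *Eef1g*, a structural subunit, stood at 229, 232 and 276 CPM in HPC and 298, 358 and 318 CPM in LPC, the only elongation factor whose groups did not overlap. *Eef1d* had differences of -0.08, -0.03 and -0.16. *Eef1e1* changed sign between sets, with differences of -0.06, 0.53 and -0.19. *Eef2k* (chr7:120842831-120907450), the kinase that inhibits eEF2, was at 22.8, 1.16 and 24.9 CPM in HPC and 20.8, 18.6 and 41.3 CPM in LPC. Its differences of 0.13, -3.65 and -0.72 did not share a direction, and the value of 1.16 CPM rests on 2 counts.

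The alpha, beta and gamma subunits of eIF2 differed widely in level, and each was lower in HPC within every set. *Eif2s1* (chr12:78861819-78887010), the alpha subunit whose phosphorylation limits initiation under stress, stood at 48.0, 4.66 and 25.6 CPM in HPC and 55.5, 36.3 and 48.6 CPM in LPC. It was lower in HPC in each set (-0.21, -2.88 and -0.92), though the highest HPC value lay inside the LPC range. Its log2 fold change was -0.83 ± 0.72 with all libraries and -0.58 ± 0.21 without set 18-8-14 and with the block (edgeR adjusted p = 0.9996 and 0.228). *Eif2s2*, the beta subunit, was the most abundant initiation factor, at 1707, 2132 and 1590 CPM in HPC and 2018, 4241 and 1882 CPM in LPC, and *Eif2s3x*, the gamma subunit, stood at 41 to 55 CPM in HPC and 54 to 68 CPM in LPC. *Eif2a* (chr3:58525821-58557501), a separate single-chain factor that is not a subunit of eIF2, went the other way. It stood at 37.9, 64.0 and 25.1 CPM in HPC and 33.7, 36.6 and 22.1 CPM in LPC, with overlapping groups (log2 fold change 0.45 ± 0.49 SE, edgeR adjusted p = 0.9996). The fold change was 0.038 without the HPC library of set 18-8-14 and 0.17 ± 0.22 without that set and with the block. On the opposite strand its exons overlap those of *Serp1*, and the use of strand in counting is not given in the sources used here.

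The 5 subunits of eIF2B, the exchange factor that reloads eIF2 with GTP, were scarce, with a median level of 29.7 CPM. Of them *Eif2b3* and *Eif2b4* were lower in HPC in every set. The remaining 3 changed sign between sets.

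The eIF3 scaffold had 14 rows, of which 12 were lower in HPC in both set 16-9-15 and set 1-9-14, and 7 in all 3 sets. Without set 18-8-14 and with the block, 7 of the 14 had an unadjusted p under 0.05, all lower. At that p 6.06% of genes tested were lower, and 298 of 1405 genes averaging at least 100 CPM. *Eif3c*, a core subunit, stood at 426, 358 and 413 CPM in HPC and 489.5, 481 and 571 CPM in LPC. *Eif3d*, which can bind the cap of some mRNAs, stood at 182, 140 and 167 CPM in HPC and 199, 212 and 251 CPM in LPC. For both genes the groups did not overlap. *Eif3k* did not overlap either, at 88 to 91 CPM in HPC and 99 to 147 CPM in LPC.

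*Eif3a* (chr19:60761117-60790658), the largest subunit, stood at 715, 888 and 910 CPM in HPC and 874, 3203 and 1153 CPM in LPC. The LPC library of set 18-8-14 alone was 3.16-fold above the mean of the other LPC libraries. The log2 fold change was -1.06 ± 0.54 with all libraries and -0.33 ± 0.12 without set 18-8-14 and with the block (edgeR adjusted p = 0.9996 and 0.212). *Eif3j1* (chr2:122028546-122056598), a loosely bound subunit, was high in the same library, with 210, 224 and 189 CPM in HPC and 225, 703 and 233 CPM in LPC (log2 fold change -0.90 ± 0.51, and -0.22 ± 0.14 without set 18-8-14 and with the block, edgeR adjusted p = 0.9996 and 0.575). It shares a nearly identical stretch of 2379 bases with *Eif3j2*, and its exons overlap *Spg11* on the opposite strand.

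Of the cap-binding complex, *Eif4e* (chr3:138526179-138559696) stood at 119, 29.7 and 74.8 CPM in HPC and 123, 29.4 and 88.4 CPM in LPC, with within-set differences of -0.06, 0.01 and -0.24. *Eif4g1* (chr16:20668313-20692884), the main scaffold, stood at 323, 119 and 324 CPM in HPC and 424, 396 and 363 CPM in LPC. Its groups did not overlap (log2 fold change -0.63 ± 0.45, and -0.29 ± 0.13 without set 18-8-14 and with the block, edgeR adjusted p = 0.9996 and 0.341). *Eif4g3*, a second scaffold, had the opposite direction outside set 18-8-14. It stood at 111, 36.7 and 120 CPM in HPC and 90.7, 97.8 and 80.9 CPM in LPC, with a log2 fold change of 0.43 ± 0.16 without set 18-8-14 and with the block and 0.00 ± 0.49 with all libraries (edgeR adjusted p = 0.237 and 0.9996). *Eif4e2*, which encodes a cap-binding protein that represses translation, did not overlap, at 43 to 53 CPM in HPC and 58 to 75 CPM in LPC.

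The helicases *Eif4a1* and *Eif4a2* are close paralogues with different levels here. *Eif4a1* (chr11:69666936-69672423) stood at 342, 226 and 239 CPM in HPC and 412, 141 and 330 CPM in LPC, with differences of -0.27, 0.69 and -0.47. *Eif4a2* stood at 218, 163 and 236 CPM in HPC and 222, 82.9 and 172 CPM in LPC, with differences of -0.03, 0.97 and 0.45. Neither kept its groups apart (edgeR adjusted p = 0.9996 for both). A row named *Eif4a-ps4* is nearly identical to *Eif4a1*, and *Eif4a2* contains genes of small nucleolar RNAs.

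The regulators that bind eIF4E had low to moderate levels. *Eif4ebp1* (chr8:27260329-27276674), the mTOR target that sequesters eIF4E, stood at 83.3, 121 and 58.2 CPM in HPC and 83.8, 121 and 65.5 CPM in LPC, with differences of -0.01, 0.00 and -0.17 (log2 fold change -0.04 ± 0.43 SE, edgeR adjusted p = 0.9996). *Eif4ebp2* (chr10:61428491-61452661), its paralogue, stood at 19.7, 26.2 and 32.9 CPM in HPC and 16.2, 0.286 and 22.0 CPM in LPC, where 0.286 CPM is 1 count, so that the difference in set 18-8-14 depends on the prior count. It was higher in HPC in each set, but the groups overlapped (log2 fold change 1.02 ± 1.06, and 0.43 ± 0.25 without set 18-8-14 and with the block, edgeR adjusted p = 0.9996 and 0.535). *Eif4enif1* (chr11:3202392-3244588), which carries eIF4E into the nucleus, did not overlap, at 22.6, 11.1 and 24.7 CPM in HPC and 33.2, 36.0 and 25.9 CPM in LPC (log2 fold change -0.69 ± 0.51, and -0.32 ± 0.24 without set 18-8-14 and with the block, edgeR adjusted p = 0.9996 and 0.668).

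The late factors held the smallest adjusted p of the fit without set 18-8-14 and with the block. They also held the factor most above its group in the LPC library of set 18-8-14. *Eif5a* (chr11:69916714-69921958), the hypusine-bearing factor that also acts in elongation, stood at 203, 147 and 183 CPM in HPC and 304, 150 and 234 CPM in LPC. Its differences were -0.58, -0.03 and -0.35, and its log2 fold change was -0.37 ± 0.40 with all libraries and -0.47 ± 0.14 without set 18-8-14 and with the block (edgeR adjusted p = 0.9996 and 0.0909). *Eif5b* (chr1:37998010-38055579), the subunit-joining GTPase, stood at 481, 583 and 507 CPM in HPC and 505, 2338 and 512 CPM in LPC. The value of 2338 CPM is 4.59-fold the mean of the other LPC libraries. Its log2 fold change of -1.09 ± 0.63 with all libraries was 0.038 without that library, and -0.05 ± 0.12 without set 18-8-14 and with the block (edgeR adjusted p = 0.9996, 1 and 0.922). *Eif6* (chr2:155819832-155826925), which keeps the ribosomal subunits apart, stood at 41.7, 83.8 and 33.7 CPM in HPC and 45.8, 28.3 and 45.7 CPM in LPC. Its fold change was 0.40 ± 0.48 on the log2 scale with all libraries and -0.30 ± 0.20 without set 18-8-14 and with the block (edgeR adjusted p = 0.9996 and 0.611), with the opposite sign.

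Several factors that were high in the LPC library of set 18-8-14 have A-rich coding sequence, a feature looked at after their values were seen. For each of 55 factors with a coding transcript in GENCODE vM21 on GRCm38, the 20 coding bases with the most A were found on the transcript's strand. The windows of the 3 factors with the most A and of 3 with few are printed, 5′ to 3′, with A in capitals, to show the range over which the medians given next are ordered.
*Eif5b*, chr1:38022201-38022220, plus strand: AAAAAgAAAAAgAAAgAAAA
*Eif2s2*, chr2:154884358-154884377, minus strand: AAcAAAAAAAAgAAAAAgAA
*Eif5*, chr12:111541732-111541751, plus strand: AAAgAAAAggAAAAgAAAAA
*Eef1a1*, chr9:78480630-78480649, minus strand: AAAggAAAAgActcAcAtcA
*Eef2*, chr10:81177695-81177714, plus strand: AtcAtggAcAAgAAAgccAA
*Eif6*, chr2:155823995-155824014, minus strand: AAcAAcAccAccgAccAggA
All 6 windows lie in a single coding exon. They hold 17, 17, 16, 11, 10 and 9 A, in the order printed, and stop 6326, 1925, 2939, 1649, 2940 and 769 bases before the transcript's 3′ end.

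The 5 factors with 15 or more A in such a window were *Eif5b*, *Eif2s2*, *Eif5*, *Eif3j1* and *Eif3j2*. Their median difference, HPC minus LPC, was -0.99 in set 18-8-14, -0.11 in set 16-9-15 and -0.24 in set 1-9-14. For the other 50 coding factors it was -0.01, -0.26 and -0.25. Among the 5, *Eif5* and *Eif3j2* were not high in the LPC library of set 18-8-14. They stood there at 1.06-fold and 0.645-fold the mean of the other LPC libraries. *Eif3a*, *Eif1* and *Eif4ebp1*, at 3.16-fold, 1.61-fold and 1.62-fold, have at most 13, 12 and 9 A in a window. Over all 9705 coding genes tested, the median difference in set 18-8-14 went from -0.04 in 2199 genes with at most 10 A, through -0.33 in 1115 genes with 14 A and -0.72 in 513 genes with 15, to -1.32 in 48 genes with 17 or more. In the other sets every such median lay between -0.14 and 0.08. Both libraries of set 18-8-14 shifted with the number of A. From genes with at most 10 A to genes with 17 or more, the median log2 distance to the other libraries of the same group went from -0.34 to 1.23 in LPC and from -0.62 to 0.00 in HPC. Across the 55 factors Spearman's rho between the number of A and the difference was -0.34 in set 18-8-14, 0.05 in set 16-9-15 and 0.14 in set 1-9-14, given as a description since the values of a set share 2 libraries. Over all 9705 coding genes rho was near 0 in each set, at -0.06, -0.03 and -0.08 in the same order. What this relation comes from was not tested.

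**Figure D4:**
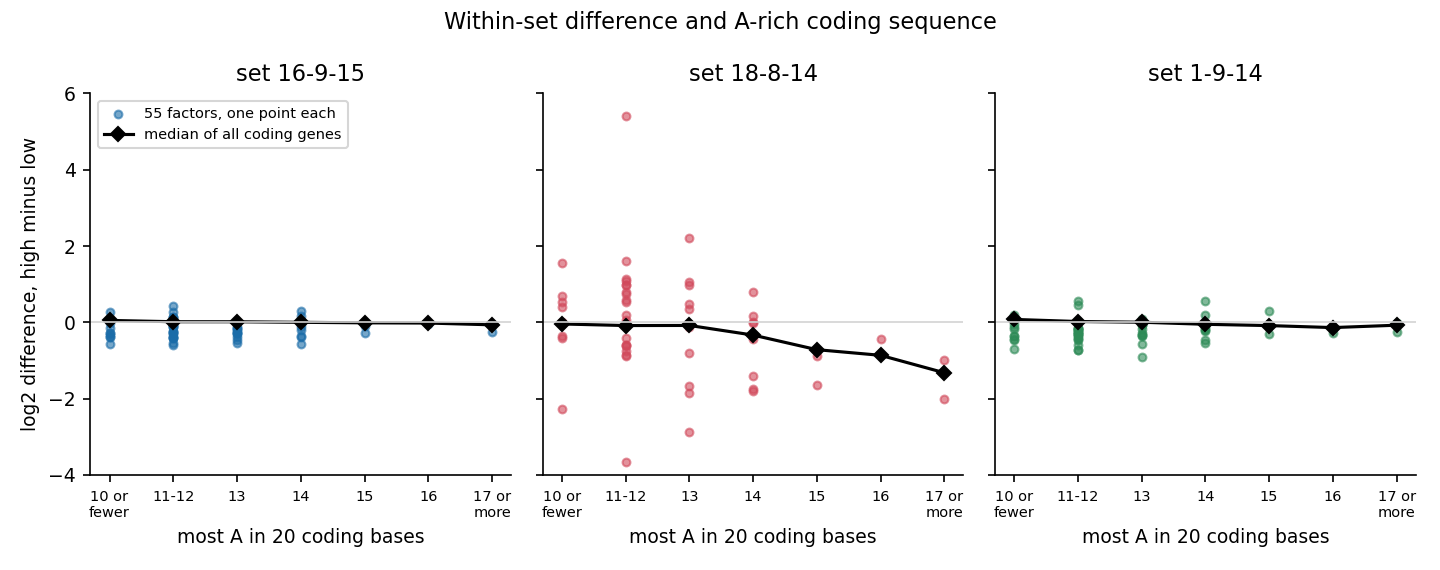
Difference in log2 CPM between the HPC and LPC library of each set (y axis) by the largest number of A in any 20 coding bases (x axis), for the 55 factors with a coding transcript (coloured points) and as the median of all coding genes tested (black diamonds). The black line falls from -0.04 to -1.32 in set 18-8-14 and stays between -0.14 and 0.08 in the other sets.

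Transcripts of elongation factors and of some eIF3 and eIF4B genes are classic 5′ terminal oligopyrimidine (TOP) mRNAs, whose start carries a run of C and T and whose translation follows mTOR. Of the 9 factors on a list of such mRNAs (*Eef1a1*, *Eef1b2*, *Eef1d*, *Eef1g*, *Eef2*, *Eif3e*, *Eif3f*, *Eif3h* and *Eif4b*), 8 were lower in HPC in both set 16-9-15 and set 1-9-14, as were 35 of the other 47. The median log2 fold change was -0.19 on the list and -0.20 off it with all libraries, and -0.30 and -0.24 without set 18-8-14 and with the block. In the latter fit 9 of 9 on the list and 40 of 47 off it were lower, beside 863 of 1405 genes averaging at least 100 CPM. At an unadjusted p under 0.05, 6 of 9 and 14 of 47 were lower. At that p 6.06% of genes tested were lower, and 298 of 1405 genes averaging at least 100 CPM. The median level was 285 CPM on the list and 67.0 CPM off it. The difference between the list and the other factors was not tested, and translation itself was not measured.

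RefSeq start regions on GRCm38.p6 were found for 44 factors. A tract, meaning a C followed by 7 bases that are each C or T, on the gene's strand and within 20 bases of an annotated start, was present in 11 of the 44 (25%), in 18.1% of 7915 tested genes with a start region and in 16.4% of all 27025. Windows from 15 bases before to 15 bases after the start are printed for 4 of the 11 as examples, with the longest run of C and T in capitals. Of the 5 factors on the TOP list with a start region, 2 had a tract (*Eef1a1* and *Eif3f*), while *Eef1b2*, *Eef2* and *Eif4b* had none in this window.
*Eef1a1*, chr9:78481710-78481739, minus strand: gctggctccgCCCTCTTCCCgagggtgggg
*Eif2s3x*, chrX:94212637-94212666, minus strand: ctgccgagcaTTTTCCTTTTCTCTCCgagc
*Eif3f*, chr7:108934400-108934429, plus strand: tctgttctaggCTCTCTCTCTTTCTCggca
*Eif3l*, chr15:79075208-79075237, plus strand: gcgcggagTTCTTCTTCCgctctctcccac
The runs are 10, 16, 15 and 10 bases long. They do not span the range of the 11, since *Eif2b5* has a run of 19 bases and *Eif3k* no marked run in this window. The 11 factors with a tract had a median log2 fold change of -0.19 and the 33 without one -0.27 with all libraries, and -0.29 and -0.24 without set 18-8-14 and with the block. The order of these medians thus turned with the libraries used.

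In the genes around the factors, 0 passed the test with all libraries. Of 12 genes of mTOR and MNK control, 10 had a higher level in HPC by the fitted log2 fold change, with a median of 0.21, against 47.0% of all genes tested. Without set 18-8-14 and with the block 7 were higher and 5 lower, with a median of 0.24. In both set 16-9-15 and set 1-9-14, 7 of 12 were higher, against 29.5% of genes. *Mknk2*, a kinase of eIF4E, stood at 24.1, 36.7 and 46.4 CPM in HPC and 17.4, 22.9 and 27.8 CPM in LPC (log2 fold change 0.65 ± 0.48, edgeR adjusted p = 0.9996). *Larp1*, which binds TOP mRNAs, was one of the 2 lower genes, at 159, 145 and 165 CPM in HPC and 200, 239 and 191 CPM in LPC without overlap.

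Of 7 genes for eIF2 alpha kinases, their cofactor and phosphatase subunits, 4 were lower, with *Eif2ak4* at -0.77 ± 0.58 on the log2 scale. It stood at 20.8, 14.0 and 14.5 CPM in HPC and 20.7, 46.9 and 17.2 CPM in LPC, so that 1 LPC library was high, and the log2 fold change was -0.13 without set 18-8-14 and with the block. *Eif2ak1*, the haem-regulated kinase, stood at 25.1, 30.3 and 22.0 CPM in HPC and 16.2, 3.43 and 20.5 CPM in LPC. Every HPC library lay above every LPC library, as in 2.43% of genes tested, and 3.43 CPM rests on 12 counts. Its log2 fold change was 0.93 ± 0.70 with all libraries and 0.345 without set 18-8-14 and with the block (edgeR adjusted p = 0.9996 and 0.685).

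Of 5 genes for poly(A)-binding proteins and their partners, 2 were lower. *Pabpc1*, the main poly(A)-binding protein and itself a TOP mRNA, stood at 800, 1244 and 881 CPM in HPC and 946, 1590 and 1216 CPM in LPC, with differences of -0.24, -0.35 and -0.47. Of 8 genes of release, recycling and re-initiation, 4 were lower, and *Etf1*, the release factor, had differences of -0.48, 0.22 and -0.59. Of 9 mitochondrial translation factors 6 were lower, against 53.0% of all genes tested. Among them *Mrrf*, which recycles mitochondrial ribosomes, stood at 8.46, 4.66 and 8.53 CPM in HPC and 10.9, 20.01 and 9.34 CPM in LPC. Its log2 fold change was -0.88 ± 0.73 with all libraries and -0.25 without set 18-8-14 and with the block (edgeR adjusted p = 0.9996 and 0.876).

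Both genes of hypusine synthesis, the modification that only eIF5A and its paralogue carry, had a lower fitted level in HPC. *Dohh*, the second enzyme, stood at 23.4, 18.6 and 18.6 CPM in HPC and 47.6, 33.7 and 30.0 CPM in LPC, without overlap. Its differences of -1.01, -0.85 and -0.68 were larger than those of *Eif5a*, and its adjusted p was 0.0539 in edgeR without set 18-8-14 and with the block. *Dhps*, the first enzyme, had 0 counts in the HPC library of set 18-8-14 and differences of -0.54 and 0.44 in sets 16-9-15 and 1-9-14.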

How the data were processed

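The authors deposited raw counts per gene, made with HTSeq per the table's name and the tally lines in it. STAR and GRCm38 are named in the submitters' processing notes, without versions. Libraries were QuantSeq 3′ forward, per the labels' protocols. The counting mode, strand use and annotation are not given in the sources used here. Tally rows (no feature 12.4% to 29.5% of tallied reads) were left out.

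From the deposited counts, edgeR 4.0.16 (glmQLFit and glmQLFTest, robust, TMM, filterByExpr at a minimum count of 10) in R 4.3.3 compared 3 HPC with 3 LPC libraries, with Benjamini-Hochberg adjustment over all genes and a threshold of 0.05. SEs come from the test statistic. Fits were tested on simulated data. DESeq2 1.42.0, limma 3.58.1 (voom with sample weights), other scaling and filtering, the set as a block and leaving out libraries were alternatives. Same-suffix libraries deviated together (correlations 0.522, 0.365 and 0.477, each above 0.1), so the suffix was taken to pair them. All 15 pairs of libraries differed by more than sampling noise, with a chi-square of at least 13.5 for each degree of freedom.

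The members and lists were chosen with earlier results of these data known. The rule for named genes took 10 factors by role (*Eef1a1*, *Eef2*, *Eef2k*, *Eif2s1*, *Eif4a1*, *Eif4e*, *Eif4g1*, *Eif4ebp1*, *Eif5a*, *Eif6*), up to 5 per direction with the largest fold change among those of at least 10 CPM with 1 sign in all sets, and the smallest p of each related list. Other genes given values were chosen after their values were seen. Gene positions are from GENCODE vM21 (GRCm38). Start regions are from RefSeq (GRCm38.p6). Nearly identical means at least 95% over at least 100 bases. Figures used matplotlib 3.10.9.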

Additional observations from a re-analysis of the deposited data

Results flagged for a closer look

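Rows whose names contain -ps were outside the factors as defined, and 2 of the 3 had counts above the limit that a count of 0 allows (3 counts). *Eif4a-ps4* had 208 counts over the 6 libraries, 29, 17 and 33 in HPC and 69, 3 and 57 in LPC of sets 16-9-15, 18-8-14 and 1-9-14, beside 10656 counts for *Eif4a1*, to which it is nearly identical. *Eif3s6-ps1* had 83 counts, 4, 0 and 28 in HPC and 23, 7 and 21 in LPC. *Eif5al3-ps* had 3 counts, at that limit.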

How the results depend on the processing

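Besides 0 with all libraries, the number of genes called was 155 with the replicate block and without set 18-8-14, and 34 in limma-voom with sample weights and the block, of which 0 were factors. With the replicate block and all libraries 0 genes were called, and the class medians were -0.14 (initiation) and -0.36 (elongation). The elongation median was -0.30 in limma-voom. Leaving out 1 library at a time moved the initiation median between -0.34 and -0.12, the elongation median between -0.50 and -0.17 and their gap between -0.33 and 0.16. Signs reversed for *Eef1a1* (-0.50 to 0.17), *Eif4a1* (-0.46 to 0.19), *Eif4e* (-0.62 to 0.34), *Eif4ebp1* (-0.34 to 0.22), *Eif5b* (-1.43 to 0.038) and *Eif6* (-0.085 to 0.63), and again for *Eif6* without set 18-8-14 (-0.30 with the block, -0.29 without it) and in limma-voom (-0.22). The cause was not tested. In the other named factors the direction held under every alternative, but *Eif2a* ranged from 0.038 to 0.71 when 1 library was left out. All-gene medians moved by over 0.1 only without the HPC library of set 16-9-15 (-0.15). The class medians kept their sign without factors rich in A (-0.13 and -0.36) or averaging under 100 CPM (-0.31 and -0.36), both added after the data were seen. Factors at a few counts in set 18-8-14, such as *Eif2b1*, *Eif2s1*, *Eef2k* and *Eif4ebp2*, are poorly measured there. Of the 56 factors, 19 have a nearly identical stretch elsewhere, and 13 share exon positions with a gene on the opposite strand. Rows nearly identical to *Eif1* held 12722 counts over all libraries, beside 50642 for *Eif1*.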
